A study of Mus musculus with 18 samples.

Results

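The 5 genes of the thrombospondin family, Thbs1, Thbs2, Thbs3, Thbs4 and Comp (also called thrombospondin-5), were followed in the left ventricle of 18 mice by RNA-seq. The members were taken by gene symbol, and all 5 were found among the 51435 genes of the table and passed the filter on low counts. Of the 18 mice, 9 were wild type (WT) and 9 were homozygous WWP2Mut/Mut. WWP2 is an E3 ubiquitin ligase, and the mutant Wwp2 allele carries a CRISPR/Cas9-made loss of 4 bases within exon 2 that disrupts the full-length and N-terminal isoforms and leaves the C-terminal isoform. Both groups came from heterozygote crosses on a C57BL/6J-based background and were compared as littermates. Every mouse of both genotypes received angiotensin II (AngII), a hormone that constricts vessels and, when given for weeks, thickens and scars the heart, at 500 ng/kg/min for 28 days from an osmotic pump implanted at 8 weeks of age. No uninfused mice were analysed here, so the values describe infused hearts of 2 genotypes and not the response to AngII itself.

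Thrombospondins are secreted, calcium-binding glycoproteins that sit in the extracellular matrix and modulate how cells meet it rather than building its fibrils. Thbs1 and Thbs2 assemble as trimers, carry type 1 repeats that bind CD36, and restrain the growth of blood vessels. Thbs1 also activates latent TGF-beta and engages CD47. Thbs3, Thbs4 and Comp assemble as pentamers without type 1 repeats. Thbs4 is known as a stress-inducible protein of the heart that acts within the endoplasmic reticulum as well as in the matrix, and Comp is best known from cartilage and tendon, where it binds collagen fibrils.

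In the mouse genome GRCm38, Thbs1 (ENSMUSG00000040152) lies on the plus strand of chromosome 2 from 118111876 to 118127133 and Thbs2 (ENSMUSG00000023885) on the minus strand of chromosome 17 from 14665500 to 14694235. Thbs3 (ENSMUSG00000028047) lies on the plus strand of chromosome 3 from 89215180 to 89226837. Thbs4 (ENSMUSG00000021702) lies on the minus strand of chromosome 13 from 92751590 to 92794818, and Comp (ENSMUSG00000031849) on the plus strand of chromosome 8 from 70373558 to 70382066. The lengths follow the split between the subgroups. The longest coding sequences encode 1171 residues for Thbs1 and 1172 for Thbs2, against 956 for Thbs3, 963 for Thbs4 and 755 for Comp. The longest exact run of bases that transcripts of any 2 members shared was 26, between Thbs1 and Thbs2 and between Thbs4 and Comp. Thbs3 is the member with the most complicated locus. It has 11 annotated transcripts, from 426 to 4034 bases, where the other members have 2 to 4. The annotation of Mtx1, which encodes a mitochondrial import protein, spans all of Thbs3 on the opposite strand, and 318 of the 4823 exonic bases of Thbs3 (6.59%) are also exonic in Mtx1. The main Mtx1 transcript and Thbs3 start 750 bp apart and run in opposite directions. For Thbs1, 208 of 6073 exonic bases (3.42%) are shared with a long noncoding RNA gene on the other strand. The library kit keeps the strand of the RNA, but the strand setting of the quantification is not given in the sources used here, so reads in these shared bases could be split uncertainly.

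The 250 bases before the RefSeq start of Thbs2, Thbs3 and Thbs4 are shown because these are the members whose upstream sequence was at hand, from both the trimer-forming and the pentamer-forming subgroup. For Thbs2 that start lies slightly upstream of the gene position given above. They are RefSeq sequences on build GRCm38.p6, written 5′ to 3′ in the direction of transcription. Thbs2 is chr17:14694263-14694512 (minus strand), Thbs3 is chr3:89214930-89215179 (plus strand) and Thbs4 is chr13:92794819-92795068 (minus strand). Capitals mark every match, on either strand, to the 6 short motifs searched. These were the TATA box (TATAAA), the CCAAT box, the GC box (GGGCGG), the binding element of SMAD proteins (CAGAC), the AP-1 site (TGANTCA) and the site of TEAD proteins (GGAATG).
Thbs2: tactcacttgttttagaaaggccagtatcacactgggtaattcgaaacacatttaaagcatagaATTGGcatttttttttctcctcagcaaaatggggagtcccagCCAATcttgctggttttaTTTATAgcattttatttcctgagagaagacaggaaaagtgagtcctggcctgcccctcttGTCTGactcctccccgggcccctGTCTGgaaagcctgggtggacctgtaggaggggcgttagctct
Thbs3: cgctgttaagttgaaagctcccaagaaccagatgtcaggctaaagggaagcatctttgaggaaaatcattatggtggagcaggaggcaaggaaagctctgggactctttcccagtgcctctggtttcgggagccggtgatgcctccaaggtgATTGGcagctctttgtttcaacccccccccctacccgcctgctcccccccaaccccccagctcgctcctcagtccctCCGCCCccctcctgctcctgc
Thbs4: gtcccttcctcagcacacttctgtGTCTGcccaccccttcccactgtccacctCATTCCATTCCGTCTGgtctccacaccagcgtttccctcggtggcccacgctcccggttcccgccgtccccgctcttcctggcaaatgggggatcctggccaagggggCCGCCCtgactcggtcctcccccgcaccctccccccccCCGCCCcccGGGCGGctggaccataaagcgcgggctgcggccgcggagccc
The Thbs4 sequence was the richest in G and C, at 70.8%, against 58.8% for Thbs3, 46.8% for Thbs2 and a median of 52.4% over the 32851 promoters of the table. The Thbs4 sequence held 3 GC boxes, 2 SMAD elements and 2 TEAD motifs that overlap by 1 base. The Thbs2 sequence held 1 TATA box on the reverse strand, 2 CCAAT boxes and 2 SMAD elements, and Thbs3 held 1 CCAAT box and 1 GC box. None of the 3 held the AP-1 motif. Among all promoters of the table, 42.2% held a SMAD element, 33.8% a CCAAT box, 32.7% a GC box, 12.6% a TEAD motif, 12.4% a TATA box and 6.75% an AP-1 motif. These matches describe the letters only.

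Library totals ran from 24566994 to 37451087 counts, and the 4 sequencing lanes each held 2 or 3 mice of either genotype. Wwp2 itself was lower in WWP2Mut/Mut mice, at 6.39 to 16.2 CPM against 23.4 to 27.2 CPM in WT mice, a log2 fold change of -1.40 ± 0.157 (SE; edgeR quasi-likelihood test, adjusted p = 0.00113). Cardiomyocyte markers were high in every library, with a summed level of 48743 to 68284 CPM. A set of 5 libraries stood apart from the rest. In WT mice 43-3, 45-1 and 84-2 and WWP2Mut/Mut mice 22-3 and 8-2, the summed CPM of the atrial markers Sln, Myl7, Myl4, Dkk3 and Bmp10 was more than 5 times the median of the 18 libraries, and 45-1 was also high in liver transcripts. The rule was applied to CPM by library total. On TMM library sizes, the scale of the other CPM values given here, WT mouse 16-1 also passed it, with liver markers at 5.37 times the median against 4.96 times by library total, and the fit was repeated without it. Where a result is also given without the 5 libraries, this is stated. The medians of marker and gene lists in the fit are for all 18 mice only. The 13 libraries outside the 5 were 6 WT and 7 WWP2Mut/Mut mice.

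Thbs1 was the member whose level separated the genotypes in most mice. In WT mice it ran from 3.42 to 45.6 CPM with a median of 31.2, and in WWP2Mut/Mut mice from 8.44 to 16.4 CPM with a median of 11.6. Of the 9 WT mice, 7 lay above every WWP2Mut/Mut mouse, 1 lay within their range and 1, mouse 16-1, lay below all of them, so the groups overlapped only through the 2 lowest WT mice. The mean level was 26.7 ± 13.05 CPM (SD, n = 9) in WT and 12.2 ± 2.72 CPM (SD, n = 9) in WWP2Mut/Mut mice, so the WT mice were also the more variable group. Mouse 16-1 had the highest gene body coverage fraction of the 18 libraries (0.0540), the lowest summed level of fibroblast markers (717 CPM) and, after 45-1, the highest summed level of liver markers (249.55 CPM), and the part of these in its low Thbs1 was not tested. The other trimer-forming member, Thbs2, did not separate the genotypes. It ran from 11.8 to 23.0 CPM in WT mice (median 15.7) and from 10.6 to 21.6 CPM in WWP2Mut/Mut mice (median 16.5), and only 1 mouse of each genotype lay outside the range of the other.

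Among the pentamer-forming members, Thbs3 was nearly level between the genotypes. It ran from 4.76 to 11.2 CPM in WT mice (median 8.27) and from 5.26 to 10.2 CPM in WWP2Mut/Mut mice (median 7.65), and 7 of the 9 WT mice lay inside the range of the mutants. Thbs4 ran from 8.61 to 49.2 CPM in WT mice (median 16.4) and from 5.58 to 20.6 CPM in WWP2Mut/Mut mice (median 12.3). The groups overlapped in the middle, with 3 WT mice above every WWP2Mut/Mut mouse and 3 WWP2Mut/Mut mice below every WT mouse. The 3 highest WT mice for Thbs4 were 43-3 (49.2 CPM), 84-2 (35.4 CPM) and 45-1 (22.4 CPM), all among the libraries high in atrial markers. Comp, the third pentamer-forming member, ran from 2.46 to 30.7 CPM in WT mice (median 4.37) and from 2.66 to 7.13 CPM in WWP2Mut/Mut mice (median 3.51). The WT mice fell into 2 clusters, with 43-3 (30.7 CPM), 84-2 (19.6 CPM) and 45-1 (18.4 CPM) far above the 6 others, none of which exceeded 5.29 CPM. The coefficient of variation among WT mice was 98.7% for Comp, 60.3% for Thbs4 and 48.8% for Thbs1, against 23.2% for Thbs2 and 23.7% for Thbs3. Without the 3 WT libraries that stood apart it was 25.02% for Comp and 25.2% for Thbs4 but 56.3% for Thbs1, so the order turned. Among WWP2Mut/Mut mice it was no higher than the 41.3% of Thbs4. Because the samples are bulk tissue, fewer cells of a type and less RNA per cell cannot be told apart in any of these levels.

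**Figure D1:**
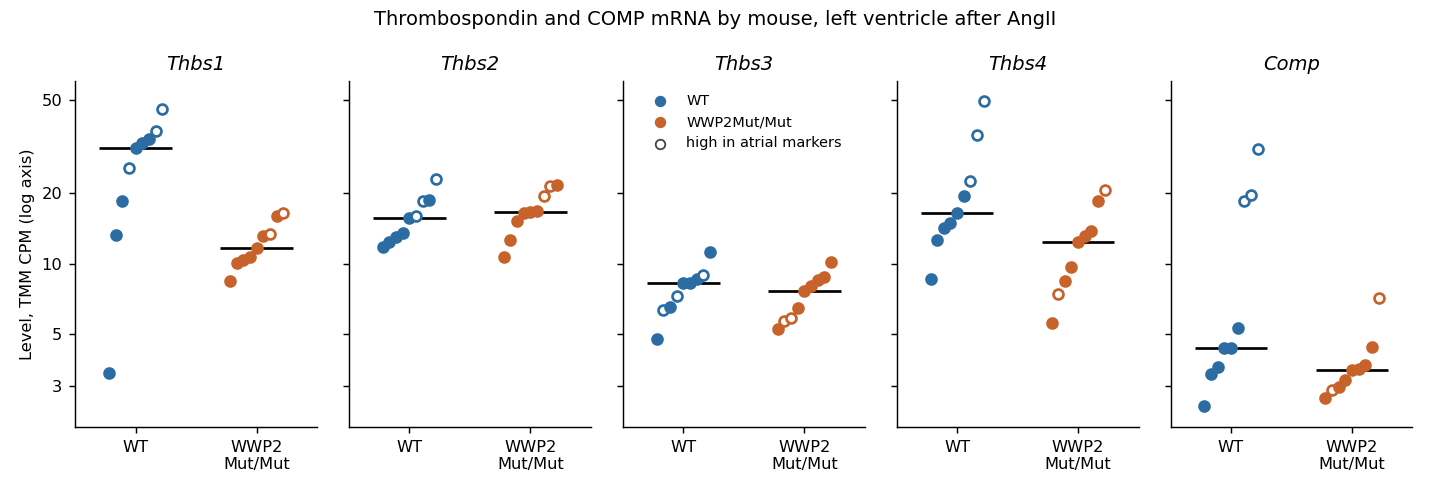
Level of each member in each mouse, in TMM-normalized CPM on a log axis, by genotype. Each point is 1 mouse, open points are the 5 libraries high in atrial markers, and the bar is the median of 9 mice. Thbs1 has 7 WT mice above every mutant, while 3 WT mice stand apart for Comp.

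The comparison of the genotypes asks how the levels of the family differ when the N-terminal part of WWP2 is missing in AngII-infused hearts. The family was chosen by earlier results of this same contrast, in which the genotype difference in the level of Thbs4 had been seen, so the members' differences are given as a description with no test. In a fit over all 24804 genes tested, with lane and RNA concentration as covariates, the log2 fold change of WWP2Mut/Mut against WT was -1.10 ± 0.347 (SE) for Thbs1, a level 2.14-fold higher in WT mice. It was -0.75 ± 0.227 for Thbs4 and -0.97 ± 0.337 for Comp, or 1.68-fold and 1.96-fold higher in WT mice. Thbs2 (-0.03 ± 0.171) and Thbs3 (-0.12 ± 0.188) differed by less than their standard errors. None of the 5 members was called by edgeR's quasi-likelihood test at an adjusted p below 0.05, where 1 gene of 24804 (0.00403%), Wwp2, was called, and DESeq2 also called none of the 5. At an unadjusted p below 0.05 there were 3 members in edgeR, where 3.66% of all genes tested were, and 3 in DESeq2, where 597 of 24804 genes were. Nothing is read from these counts, since the family was chosen on this contrast, and edgeR had 0 members without the 5 libraries that stood apart and 1 without mouse 16-1 as well. No member had non-overlapping groups, which 0.00403% of the genes tested had. Within each of the 4 sequencing lanes, the mean level was lower in WWP2Mut/Mut mice for Thbs1 (log2 differences from -1.64 to -0.55), for Thbs4 (-1.30 to -0.46) and for Comp (-2.12 to -0.33), while Thbs2 and Thbs3 had lanes in each direction. Both WT mice of lane 3 and 1 of the 2 in lane 2 were among the libraries that stood apart, and Comp differed by -2.12 and -1.73 there but by -0.37 and -0.33 in lanes 1 and 4. Without those libraries lane 3 held no WT mouse, and in lanes 1, 2 and 4 the values were -0.79, -0.0031 and -1.40 for Thbs1, -0.63, -0.13 and -0.73 for Thbs4 and -0.37, -0.04 and -0.19 for Comp, with 1 WT mouse in lane 2 and 1 WWP2Mut/Mut mouse in lane 4.

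The 3 lower members differed in how far their values depended on the libraries that stood apart. Without these 5 libraries, in 6 WT and 7 WWP2Mut/Mut mice, the log2 fold change was -0.88 ± 0.444 (SE) for Thbs1, -0.55 ± 0.277 for Thbs4 and -0.20 ± 0.230 for Comp. WWP2Mut/Mut mouse 1-2 was then alone in lane 3. The lane covariate absorbed it, so it added nothing to the genotype difference in this fit. Without WT mouse 16-1 as well the log2 fold change was -1.22 ± 0.230 for Thbs1, -0.61 ± 0.302 for Thbs4 and -0.12 ± 0.251 for Comp, again with mouse 1-2 alone in its lane. In the 13 libraries Thbs1 averaged 22.1 ± 12.5 CPM (SD, n = 6) in WT and 11.5 ± 2.47 CPM (SD, n = 7) in WWP2Mut/Mut mice. Thbs4 averaged 14.3 ± 3.61 CPM (SD, n = 6) and 11.6 ± 4.17 CPM (SD, n = 7). Comp averaged 3.91 ± 0.978 CPM (SD, n = 6) and 3.42 ± 0.559 CPM (SD, n = 7). For each of the 3 the means then differed by less than the larger of the 2 SDs. With 1 mouse left out at a time, the log2 fold change stayed between -1.35 and -0.86 for Thbs1 and between -0.93 and -0.63 for Thbs4. For Comp it went from -1.12 to -0.54, the last without WT mouse 45-1, and with no covariates in the fit it was -1.44. With gene body coverage added as a covariate the value was -0.87 ± 0.289 for Thbs1.

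**Figure D2:**
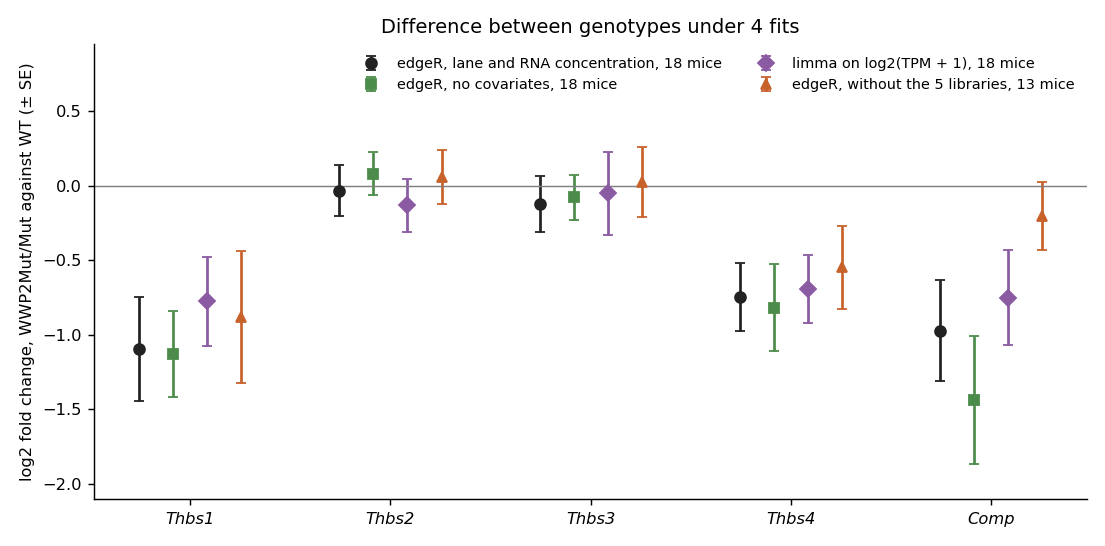
log2 fold change of WWP2Mut/Mut against WT for each member under 4 fits, with the standard error as bars. Thbs1 and Thbs4 stay below 0 in the 4 fits shown, Comp lies between -1.44 and -0.20, and Thbs2 and Thbs3 lie near 0.

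Comp, whose product is a matrix protein of tendon and cartilage, was highest in libraries that were also high in atrial markers. Whether the marker transcripts came from tissue other than the ventricle was not tested. WT mice 43-3, 45-1 and 84-2 had summed atrial marker levels of 207, 474 and 134 CPM, where the 6 other WT mice had 3.71 to 9.15 CPM. Of the 5 markers, 4 carried this and Bmp10 was at or near 0 in every library. The same 3 mice had summed levels of tendon, cartilage and valve markers of 77.7, 66.6 and 60.8 CPM, against 22.3 to 34.4 CPM in the other WT mice. Fibromodulin (Fmod), a collagen-binding proteoglycan of tendon and valve, was at 26.1, 26.1 and 17.1 CPM in them and at no more than 6.27 CPM in any other mouse. Chondroadherin (Chad), of cartilage, was at 6.97, 2.38 and 4.82 CPM, and the tendon gene Tnmd at 1.94, 0.545 and 1.19 CPM, while Col2a1, the main collagen of cartilage, was at or near 0 throughout. Not all markers of the list followed. The tendon transcription factor Scx was at 8.70, 8.05 and 10.3 CPM in these 3 mice, within the 6.79 to 11.4 CPM of the other WT mice and below the 16.4 CPM of WWP2Mut/Mut mouse 53-1. The 2 WWP2Mut/Mut mice high in atrial markers differed from each other in Comp. Mouse 8-2 had 345.3 CPM of atrial markers with 34.3 CPM of tendon, cartilage and valve markers and a Comp level of 7.13 CPM, the highest of the 9 mutants in both Comp and the tendon, cartilage and valve sum. Mouse 22-3 had 75.4 CPM of atrial markers with a Comp level of 2.90 CPM. Across the 13 remaining libraries, with genotype means removed, Comp had r = 0.43 with the atrial markers (Spearman's rho = 0.23; adjusted permutation p = 0.325) and r = 0.56 with the tendon, cartilage and valve markers (rho = 0.39; adjusted permutation p = 0.317). Neither held without the 2 farthest mice (r = -0.26 and -0.06). The summed tendon, cartilage and valve markers were lower in WWP2Mut/Mut mice before correction (two-sided exact permutation test, p = 0.0445), and not after correction over 17 library measures (adjusted p = 0.378). Their log2 difference was -0.49 over all mice and -0.11 in the 13 remaining libraries (two-sided exact permutation test, p = 0.362; adjusted p = 0.869). The part of the atrial and of the tendon, cartilage and valve transcripts in the genotype difference of Comp was not tested beyond the fit without the 5 libraries.

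**Figure D3:**
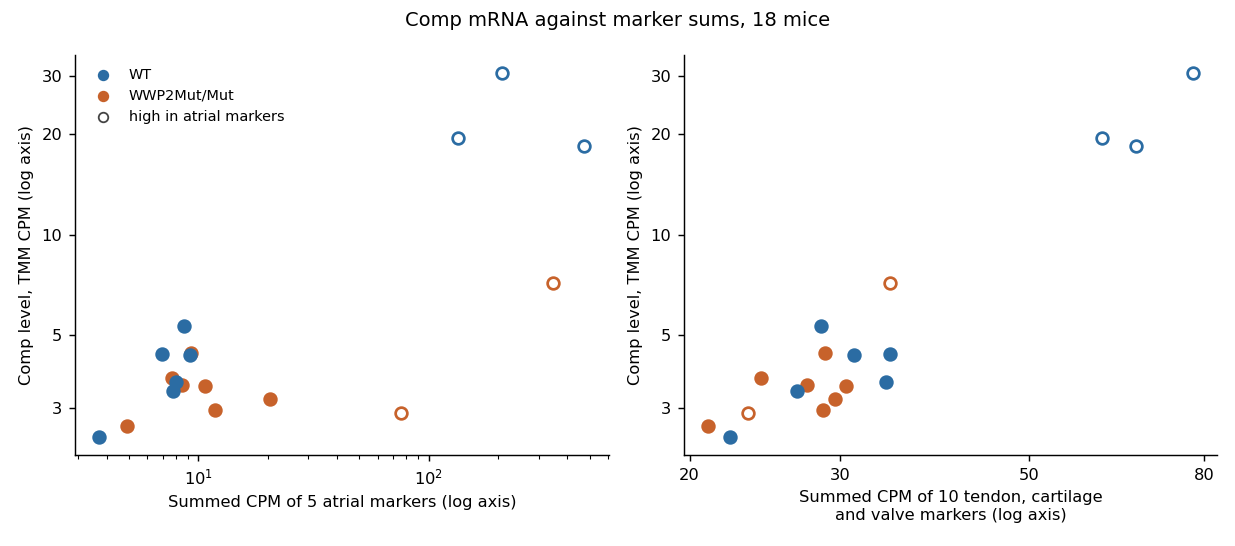
Comp level in each mouse against the summed level of 5 atrial markers (left) and of 10 tendon, cartilage and valve markers (right), all in CPM on log axes. The 3 WT mice with Comp of 18.4 to 30.7 CPM are high in both sums, while the 2 WWP2Mut/Mut mice high in atrial markers have Comp of 2.90 and 7.13 CPM.

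The members did not rise and fall as a single group among mice of the same genotype. Over 10 pairs, in log2(CPM + 1) with genotype means removed and within-genotype permutations, only Thbs4 and Comp passed at 18 mice (adjusted permutation p = 0.0001), and the other 9 pairs had adjusted p of 0.426 or more for r and 0.379 or more for rho. With lane and RNA concentration, the covariates of the genotype fit, also removed, Thbs4 and Comp had r = 0.57, which did not pass (adjusted permutation p = 0.125), and rho = 0.67, which did (adjusted permutation p = 0.0407). Since Comp fell into clusters, the relation between Thbs4 and Comp is also given without the libraries that stood apart. Those hold the WT mice high in Comp, and also WWP2Mut/Mut mice 8-2 and 22-3, whose Comp was 7.13 and 2.90 CPM. In the 13 libraries that did not stand apart the relation was r = 0.61 and rho = 0.53 (permutation p = 0.0221 and 0.0666; adjusted p = 0.110 and 0.222), and r was 0.18 without the 2 mice farthest in Thbs4. Within those 13 libraries the pair with the highest correlation was Thbs3 and Comp, at r = 0.81 and rho = 0.79 (permutation p = 0.00265 and 0.00288; adjusted p = 0.0265 and 0.0288), with r = 0.79 without the 2 farthest mice. Its r was 0.97 among the WT and 0.54 among the WWP2Mut/Mut mice there. Gene body coverage had r = 0.54 with Thbs3 and 0.59 with Comp in the same libraries, and 0.28 and 0.27 without the 2 farthest mice. The part of coverage in this pair was not tested. Over all 18 mice that pair had an adjusted permutation p of 0.906. Among the WWP2Mut/Mut mice alone, none of them in the high Comp cluster, Thbs4 and Comp had r = 0.78, given as a description. There mouse 8-2 was the highest for both Thbs4 (20.6 CPM) and Comp (7.13 CPM), and mouse 33-1 was the lowest for both (5.58 and 2.66 CPM). Thbs1 and Thbs2, the trimer-forming pair, had r = 0.30 and rho = 0.38 over 18 mice (adjusted permutation p = 0.426 and 0.379).

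**Figure D4:**
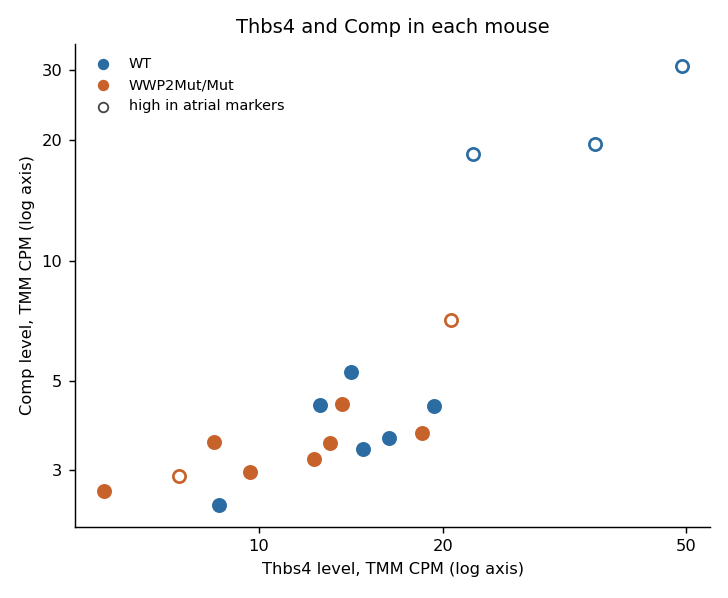
Thbs4 and Comp levels in each of the 18 mice, in CPM on log axes. The 3 open WT points at the upper right are the libraries with Comp of 18.4 CPM or more, and the remaining mice lie between 2.46 and 7.13 CPM for Comp.

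Compared per length, in TPM, the 5 genes lay within a narrow range of levels. In WT mice the order of the medians was Thbs3 (4.15 TPM), Thbs1 (3.75), Thbs4 (3.62), Thbs2 (1.98) and Comp (1.78). Of these neighbours, only Thbs4 and Thbs2 differed beyond their spread, with Thbs4 higher in 8 of 9 mice by 0.92 ± 0.627 (SD) in log2(TPM + 1) (two-sided exact paired permutation test, p = 0.00781; adjusted p = 0.0313). With 1 WT mouse left out this pair passed only without mouse 25-3, and its adjusted p in the exact test rose to at most 0.0625. In WWP2Mut/Mut mice the order was Thbs3 (3.73 TPM), Thbs4 (2.42), Thbs2 (1.83), Thbs1 (1.47) and Comp (1.15). There Thbs2 exceeded Thbs1 in 9 of 9 mice by 0.26 ± 0.195 (SD) in log2(TPM + 1) (two-sided exact paired permutation test, p = 0.00391, the smallest this test allows; adjusted p = 0.0313), and no other neighbours passed. Neither difference passed without the 5 libraries that stood apart, where fewer mice limit the smallest p. Thbs2 then exceeded Thbs1 in WWP2Mut/Mut mice by 0.25 in log2(TPM + 1) (exact p = 0.0156, the smallest that 7 mice allow; adjusted p = 0.125), and Thbs4 exceeded Thbs2 in WT mice by 0.64 (exact p = 0.0625; adjusted p = 0.167). The order of the medians and that within mice were not the same for Thbs1 and Thbs4 in WT mice, since Thbs1 had the higher median but exceeded Thbs4 in only 2 of 9 mice (mean difference of -0.45 ± 0.607, SD, in log2(TPM + 1); two-sided exact paired permutation test, p = 0.0625, adjusted p = 0.167). The change in the place of Thbs1 between the genotypes was not tested as such.

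The TPM of Thbs3, the member with the highest median in both genotypes, followed its counts less closely than that of the other members. The counts behind 1 TPM of Thbs3, relative to the median gene of the same library, varied 2.75-fold between mice, against 1.05-fold to 1.09-fold for Thbs1, Thbs2 and Thbs4 and 1.70-fold for Comp. For Thbs3 this ratio fell as the gene body coverage fraction of the library rose (r = -0.89 over the 18 mice, given as a description). Thbs3 ran from 1.86 to 7.63 TPM in WT mice, a 4.10-fold range, while its CPM ranged 2.35-fold. CPM and TPM of the same gene across mice had r = 0.83 on the log2 scale for Thbs3 and 0.94 to 0.99 for the other members. RSEM sets TPM from the lengths of the transcripts it assigns reads to, and 8 of the 11 annotated transcripts of Thbs3 have 779 bases or fewer. Which transcripts received the reads was not analysed here, since the tables hold genes, and the order of levels under another assignment was not tested.

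**Figure D5:**
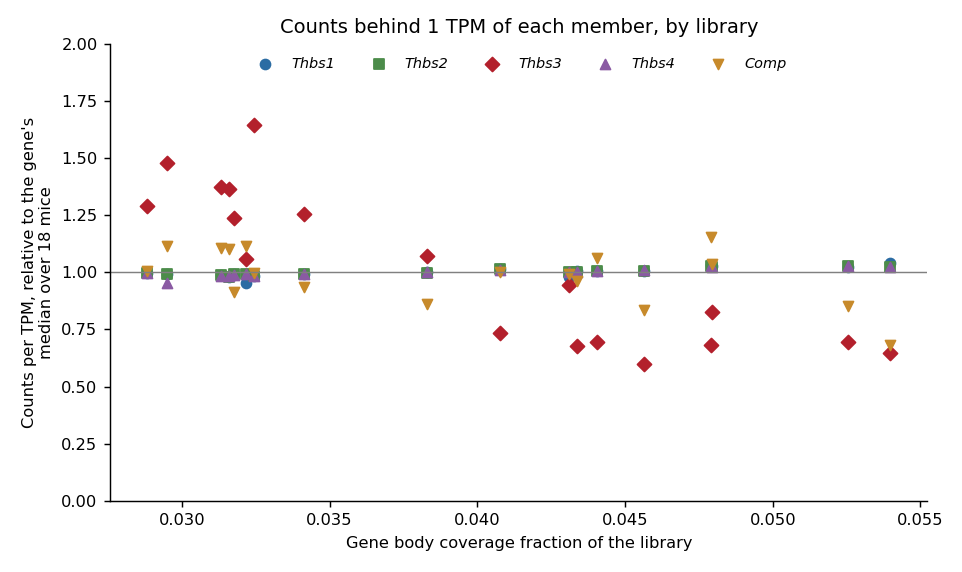
Counts behind 1 TPM of each member in each of 18 libraries, relative to the same gene's median, against the gene body coverage fraction of the library. Thbs3 varies 2.75-fold and falls with coverage, while Thbs1, Thbs2 and Thbs4 stay within 1.09-fold.

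The level of the members also moved with measures of the libraries. Of 85 relations between 5 members and 17 measures over 18 mice, with genotype means removed, 12 passed at an adjusted permutation p below 0.05 for r, and 5 of the 12 involved Comp or a marker sum that fell into clusters. These were Thbs4 with the atrial and with the tendon, cartilage and valve markers, and Comp with both of these and with the adipocyte markers. Within the 13 libraries that did not stand apart, Thbs4 had r = 0.57 with the atrial markers (rho = 0.36; adjusted permutation p = 0.317 and 0.654) and r = 0.53 with the tendon, cartilage and valve markers (rho = 0.38; adjusted permutation p = 0.317 and 0.591), and without the 2 farthest mice r was -0.06 and -0.25. The part of these marker transcripts in the genotype difference of Thbs4 was not tested beyond the fit without the 5 libraries. Of the rest, 4 were those of Thbs2, which was lower where cardiomyocyte markers (r = -0.76, rho = -0.72; adjusted permutation p = 0.0105 and 0.0205), platelet markers (r = -0.72, rho = -0.74; adjusted permutation p = 0.0146 and 0.0144), erythrocyte markers (r = -0.71, rho = -0.64; adjusted permutation p = 0.0146 and 0.0462) and gene body coverage (r = -0.67, rho = -0.79; adjusted permutation p = 0.0357 and 0.0108) were higher. Without the 2 farthest mice these were r = -0.78, -0.62, -0.53 and -0.64. Thbs1 also fell with gene body coverage (r = -0.67, rho = -0.67; adjusted permutation p = 0.0146 and 0.0205; r = -0.48 without the 2 farthest mice). Thbs4 rose with the summed fibroblast markers (r = 0.65, rho = 0.70; adjusted permutation p = 0.0492 and 0.0234; r = 0.64 without the 2 farthest mice), and Thbs3 with the immune markers (r = 0.66, rho = 0.66; adjusted permutation p = 0.0357 and 0.0373; r = 0.47 without the 2 farthest mice). In log2(TPM + 1) the relation of Thbs3 with the immune markers did not pass (r = 0.25, rho = 0.30; adjusted permutation p = 0.515 and 0.469), while that with gene body coverage did (r = 0.80, rho = 0.78; adjusted permutation p = 0.00425 and 0.00606; in CPM r = 0.62, rho = 0.56, adjusted permutation p = 0.0504 and 0.126). None of the relations that passed over 18 mice passed in the 13 libraries alone, though several had an r of similar size there. For Thbs2 r was -0.70 with gene body coverage, -0.58 with cardiomyocyte, -0.56 with platelet and -0.50 with erythrocyte markers. It was -0.60 for Thbs1 with gene body coverage, 0.48 for Thbs4 with fibroblast, 0.69 for Thbs3 with immune and 0.63 for Comp with adipocyte markers. Without the 2 farthest mice, in the same order, r was -0.47, -0.62, 0.17 and -0.36 for Thbs2. For the others it was -0.59, 0.48, 0.32 and 0.03. In the same 13 libraries 2 other relations passed, those of Thbs2 with the atrial (r = -0.88, rho = -0.74; adjusted permutation p = 0.0399 and 0.174; r = -0.74 without the 2 farthest mice) and the tendon, cartilage and valve markers (r = -0.80, rho = -0.80; adjusted permutation p = 0.0399 and 0.165; r = -0.54 without the 2 farthest mice). Over all 18 mice both had the other sign (r = 0.49 and 0.22) and did not pass. The measures themselves did not pass between the genotypes, with adjusted p of 0.378 or more. In the fit over genes, none of the markers was called, but all 6 liver markers were lower in WWP2Mut/Mut mice at an unadjusted edgeR p below 0.05 (median log2 fold change of -1.85), and the 4 adipocyte markers had a median of -0.94, with 1 at that p, where 3.66% of all genes had such a p. Of the other lists, 2 of 10 tendon, cartilage and valve markers (median of -0.53) and 1 of 6 activated fibroblast markers (median of -0.25) were lower at that p, and 1 of 6 smooth muscle and pericyte markers was higher (median of 0.19). Their part in the differences of the members was not tested. Mean RNA concentration was higher by 64.9 ng per microlitre in WWP2Mut/Mut mice before correction (two-sided exact permutation test, p = 0.0422), and it was a covariate of the fit.

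The genes whose levels followed each member most closely over the 18 mice, with genotype means removed, differed from member to member. They are given by Pearson's r in log2(CPM + 1) among 13019 genes, as a description. For Thbs4 the 5 highest were Ltbp2 (r = 0.91), a latent TGF-beta binding protein, Gria3 (0.90), Col12a1 (0.87), a fibril-associated collagen, Cilp (0.86), a matrix protein of activated cardiac fibroblasts, and Sel1l3 (0.85). For Comp they were Fmod (0.94), Angptl7 (0.91), the WNT antagonists Wif1 (0.91) and Sfrp5 (0.90), and Dkk3 (0.90). How far these values rest on the 3 WT libraries named above was not tested by itself. In the 13 other libraries the 5 highest for Comp were Podn, Smoc1, Cnppd1, C130074G19Rik and Ahnak2, with r from 0.89 to 0.93, and none was shared. For Thbs4, Cilp (r = 0.85) stayed among the 5 there, and the highest was Dkk3 (0.87), 1 of the 5 atrial markers. For Thbs1 the 5 highest were Btk (0.89), a kinase of immune cells, Arsb (0.85), Srebf2 (0.85), a regulator of cholesterol synthesis, Arl4c (0.85) and the basement membrane collagen Col15a1 (0.85), and Srebf2 and Col15a1 (both r = 0.88) were again among the 5 in the 13 libraries. For Thbs2 they were Elf2 (0.91), Gclc (0.86), Tpp1 (0.86), Hnrnpll (0.85) and Pias1 (0.85). For Thbs3 they were Scarf2 (0.92), P3h3 (0.91), a collagen prolyl hydroxylase, Pld2 (0.91), Ggt7 (0.90) and Cul7 (0.90). None of the 5 of Thbs2 or of Thbs3 was among the 5 in the 13 libraries, where the highest were Tmcc3 (0.95) for Thbs2 and Tnxb (0.96), a tenascin of the matrix, for Thbs3.

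None of the genes that thrombospondins bind, act through or are cleaved by was called between the genotypes. Of 102 gene symbols in 7 lists, a few of them older names of a listed gene, 98 were tested. Of these, 0 were called by edgeR and 0 by DESeq2, and 4 had an unadjusted edgeR p below 0.05, where 3.66% of all genes did. The median log2 fold change over all genes tested was -0.01, and 51.9% of genes had a negative value. The 19 receptors and binding partners at the cell surface had a median of 0.01 and ranged from -0.16 to 0.23, with 9 negative. Among them the heparan sulfate proteoglycan Sdc4 was at 3.61 ± 0.712 TPM in WT and 3.42 ± 0.634 TPM in WWP2Mut/Mut mice (SD, n = 9 each), while its fitted log2 difference from the counts was in the other direction, at 0.23 ± 0.139 (SE). Calreticulin (Calr), a binding partner of Thbs1, was at 154 ± 42.3 and 128 ± 27.3 TPM. The scavenging receptor Lrp1 was at 27.1 ± 10.5 and 25.6 ± 4.06 TPM. The 9 tested genes of TGF-beta and nitric oxide signaling had a median of -0.08, with 7 negative. In that list the angiogenic factor Vegfa, which Thbs1 binds, was at 130 ± 36.2 TPM in WT and 91.7 ± 38.9 TPM in WWP2Mut/Mut mice, and its fitted log2 difference was -0.30 ± 0.179 (SE). The 7 proteases that cleave thrombospondins or their matrix had a median of -0.11, with 6 negative.

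The 14 matrix partners had a median log2 fold change of -0.10, with 11 negative. Decorin (Dcn) was at 238 ± 80.8 TPM in WT and 195 ± 44.6 TPM in WWP2Mut/Mut mice (SD, n = 9 each), and the collagen gene Col1a2 at 19.8 ± 6.48 and 16.4 ± 4.33 TPM. The only member of this list with an unadjusted edgeR p below 0.05 was Col12a1, with a log2 fold change of -0.93 at a mean of 0.416 TPM. Over all 18 mice it was among the 5 genes that followed Thbs4 most closely, but not in the 13 libraries that did not stand apart. The 20 endoplasmic reticulum chaperones and stress genes, the compartment in which Thbs4 acts, had a median of -0.11, with 17 negative and none called. The disulfide isomerase Pdia4 was at 10.5 ± 3.19 TPM in WT and 7.85 ± 2.25 TPM in WWP2Mut/Mut mice, a fitted log2 difference of -0.40 ± 0.164 (SE; edgeR, unadjusted p = 0.0254, adjusted p = 1). The stress kinase gene Eif2ak3 was at 1.43 ± 0.330 and 1.15 ± 0.350 TPM, with -0.31 ± 0.140 (SE; edgeR, unadjusted p = 0.0405, adjusted p = 1). The 26 tested proteins with type 1 repeats, the module that Thbs1 and Thbs2 carry, had a median of -0.04 and ranged from -1.08 to 1.35, with 17 negative. The metaxin genes that lie near Thbs3 and Thbs4 encode parts of the protein import machinery of mitochondria. Mtx1, which overlaps Thbs3, had a log2 fold change of 0.03 ± 0.136 (SE), and Mtx3, 49942 bp from Thbs4, had -0.17 ± 0.152.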

How the data were processed

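RNA from the left ventricle of each mouse was poly(A)-selected and made into libraries with the NEBNext Ultra Directional kit. The authors aligned the reads to mouse m38 (Ensembl 89) with STAR 2.5.2b and quantified genes with RSEM 1.2.31, versions that the submitters' processing notes also give, and left out genes of the mitochondrial genome and of rRNA. The authors deposited RSEM's expected counts, of which 13.1% of those above 0 were not whole (tolerance 1e-09), and the TPM values, which summed to 671770 to 826381 per mouse. The deposited sample table gave lane, RNA concentration and a gene body coverage fraction (0.0288 to 0.0540). It is headed genebody_bottomhalf and its definition is not stated, so a higher value is not read here as better RNA.

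Expected counts were rounded and fitted with edgeR 4.0.16 (TMM, quasi-likelihood) under R 4.3.3 over genes whose counts summed to more than 1, with lane and centred RNA concentration as covariates and Benjamini-Hochberg adjustment at 0.05. Log2 fold changes are WWP2Mut/Mut against WT. CPM uses TMM library sizes. Levels of different genes were compared in log2(TPM + 1). Correlations used 100000 permutations within genotype, and library measures all 48620 divisions of 18 mice into 9 and 9. Alternatives were DESeq2 1.42.0, limma 3.58.1 on TPM, other size factors, filters and covariates, and left-out mice. The test script was run on simulated data first. Python 3.11.15, numpy 2.4.6, scipy 1.17.1 and pandas 2.3.3 were used. Positions come from GENCODE M21 (GRCm38) and promoters from RefSeq, where 3 of 5 members matched.

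Mice were grouped by the genotype in the labels. Replicates are separate mice, every pair of a genotype differed by more than sampling noise (chi-square per gene of 13.96 or more over 72 pairs), and none was merged. Counts carry counting error only within a library. The members and gene lists were chosen with earlier results of these data known. Beside the 5 members and Wwp2, named genes are at most 4 per list with the smallest p at a mean TPM of 1 or more, and 5 per member with the highest r at a mean CPM of 1 or more. Single markers, Col12a1 outside its place among the genes most like Thbs4, and the genes most like a member in the 13 libraries were chosen after their values were seen.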

Additional observations from a re-analysis of the deposited data

Results flagged for a closer look

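In each genotype the extreme mice were looked at for values far from the rest, by Dixon's ratio of the gap beside the extreme mouse to the whole range at the 95% level. Chance marks about 1 in 20 groups. The level of Comp in WWP2Mut/Mut mouse 8-2, 7.13 CPM, lay 0.612 of the range above the next mutant. The same mouse had 345.3 CPM of summed atrial markers, 0.793 of the range above the next mutant. WT mouse 45-1 had 474 CPM of summed atrial markers, 0.567 of the range above the next WT mouse. The RNA concentration of WT mouse 43-3, the mouse highest in Thbs1, Thbs4 and Comp, was listed at 1.68 ng per microlitre, where the next lowest of the 18 was 88.6. Its part in the fitted values through the RNA covariate was not tested beyond the fits without that mouse and with lane alone. With lane alone the log2 fold change was -1.05 for Thbs1, -0.79 for Thbs4 and -1.15 for Comp.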

How the results depend on the processing

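Over 30 alternatives Thbs1, Thbs4 and Comp stayed negative, Thbs1 between -1.35 and -0.78, Thbs4 between -0.93 and -0.55 and Comp between -1.44 and -0.12, while Thbs2 (-0.19 to 0.10) and Thbs3 (-0.25 to 0.03) had values on each side of 0. Without the 5 libraries high in atrial or liver markers, 0 genes were called in place of 1, and Wwp2 had a log2 fold change of -1.26 ± 0.199 (SE) with an adjusted edgeR p of 0.204 in fewer mice. Without WT mouse 16-1 as well, an alternative added after seeing the data, 0 genes were called. Wwp2 then had -1.27 ± 0.223 (SE; edgeR, adjusted p = 0.511). Comp moved from -0.97 to -0.20 and then to -0.12, by more than 2 of its standard errors (0.337). With 1 mouse left out, 1 to 2 genes were called, the 2 without WWP2Mut/Mut mouse 1-2 or WT mouse 84-2. In the order of levels, 2 neighbouring pairs passed, 0 without the 5 libraries and 1 to 3 with 1 mouse left out. Without WT mouse 16-1, 39-1, 43-3, 45-1, 45-3, 67-1, 84-2 or 94-2 it was 1, Thbs4 and Thbs2 in WT mice being lost. Among pairs of members 1 passed, 3 in log2(TPM + 1), where Thbs1 with Thbs2 and with Thbs4 joined, and 0 with lane and RNA concentration removed (Thbs4 and Comp, adjusted permutation p = 0.125). Of the relations with library measures 12 passed, 13 in log2(TPM + 1), 10 with lane and RNA concentration removed and 2 in the 13 libraries, an alternative added after seeing the data, as were the most similar genes in those libraries. The cause of these changes was not tested. No paired analysis was possible because the mouse names are not shared between the genotypes. Thbs3 and Comp had the fewest counts (medians of 211 and 101 in WWP2Mut/Mut mice), which limits their precision, and 9 mice per genotype limit all comparisons.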
